A study of Mus musculus with 96 samples.

Results

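The contacts of the viewpoint at 153.4 Mb of mouse chromosome 4 were compared between the intact C57BL/6J homologue of cells that carry a deletion on the other homologue and the same homologue of control cells. These data are 4 of the 96 samples of the series, chosen by their labelled viewpoint and allele: +DBl6 of lines E71 and E98, and +Bl6 of lines E117 and E118. The series measured contacts of 12 viewpoints by PE-4Cseq, an allele-resolved form of 4C, in mouse embryonic fibroblasts. Each line was made from an embryo at day 13.5 of a cross between Df/Dp male chimeras, whose engineered chromosome comes from 129S5/SvEvBrd embryonic stem cells, and C57BL/6J mice, and was used at confluence at passage 4. Lines E71 and E98 are Df/+DBl6: their 129S5 homologue lacks 4.3 Mb, the viewpoint included, and their C57BL/6J homologue is whole. Lines E117 and E118 are +129/+Bl6 and carry no deletion. The comparison asks whether the whole homologue makes other contacts when its partner lacks the interval.

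In 4C, chromatin is cross-linked, cut and ligated, and every fragment joined to 1 chosen viewpoint is amplified and counted. Contacts of any locus fall with distance along the chromosome, and loci of a gene-rich, active kind tend to meet others of that kind. The viewpoint lies among Trp73, a transcription factor of the p53 family, Megf6, which encodes a protein with many EGF-like repeats, and Prdm16, a zinc finger regulator of brown fat and of craniofacial development. The human counterpart of the deleted interval lies in 1p36, a band lost in a recurrent microdeletion syndrome. The files hold contacts and no expression, so the labelled cell type was not checked against marker genes.

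The viewpoint fragment, cut by HindIII, is chr4:153426941-153428557 of the mm9 build (NCBIM37), 1617 bases long. No annotated gene overlaps it in GENCODE vM1. Trp73, on the minus strand, ends 1801 bases downstream of it, and Ccdc27 starts 10155 bases upstream. The primers and the polymorphism that separate the homologues are shown because every value below rests on them. The HindIII site is in capitals in the second primer, which reads outward from the downstream end of the fragment. The sequence around the polymorphism is that of the reference genome, and its capital marks T153428156C, with the C57BL/6J base first, the position on chromosome 4, and the 129S5 base last.
Viewpoint primer on the DpnII side, chr4:153428178-153428199, minus strand: gctttcagtgttgatgaccttg
Viewpoint primer on the HindIII side, chr4:153428531-153428557, plus strand: tctaaatatcaagtccagataAAGCTT
Allele site, chr4:153428126-153428186, plus strand: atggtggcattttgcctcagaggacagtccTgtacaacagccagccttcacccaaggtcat

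The +DBl6 samples held 184434 reads on 3247 fragments in line E71 and 2111845 reads on 7226 fragments in line E98. The +Bl6 samples held 986939 reads on 7256 fragments in line E117 and 942173 on 6719 in line E118. The pair of +Bl6 samples shared 5519 captured fragments over 1 Mb from the viewpoint, with a correlation of log reads of 0.95, against 0.35 over 1380 shared fragments in the +DBl6 pair. The +Bl6 samples were therefore added up and counted as 1 library, so that the spread between lines was measured in the +DBl6 arm alone. The +129 reads of the same control lines, which come from other molecules, were summed likewise and are given as a second control level. They carry 129S5 sequence, and whether strain variants changed which fragments were captured was not tested. Reads within 20 kb of the viewpoint fragment were left out, and levels are given as RPM, the reads scaled to a sum of 1e6 over all fragments of a sample outside that zone.

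The libraries of the genotypes also differed next to the viewpoint. The viewpoint fragment itself took 10.6% and 14.8% of all reads in +DBl6 of lines E71 and E98, against 2.53% and 1.76% in +Bl6 of lines E117 and E118. Reads outside the 20 kb zone made up 63.8% and 57.2% of the +DBl6 samples and 72.5% and 73.6% of the +Bl6 samples. The part of these library properties in the results below was not tested.

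The 80 kb window that covers Wdr8, Tprgl and the 5′ part of Megf6 (chr4:153520001-153600000, centred 132 kb downstream) was the strongest local contact and was higher in +DBl6. Wdr8 encodes a WD repeat protein and Tprgl a protein found on synaptic vesicles. Its level was 123361 RPM in line E71 and 117136 in line E98. It was 78465 and 80053 RPM in +Bl6 of lines E117 and E118, and 91136 in the summed +129 library. Both +DBl6 levels lay above every control level, and also within each purification kit (E71 with E117, E98 with E118). The +Bl6 samples share captured molecules, so these kit pairs are not independent comparisons. As shares of reads the window levels are 12.3% in E71 (95% Wilson interval 12.1 to 12.5), 11.7% in E98 (11.7 to 11.8) and 7.92% in summed +Bl6 (7.88 to 7.97). The intervals cover counting error only.

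In edgeR's quasi-likelihood test the window was higher by 0.67 on the log2 scale (SE 0.11), with a Benjamini-Hochberg adjusted p of 0.000246 over 10138 windows of 12 viewpoints. It was the only call among 1033 windows of this viewpoint (0.0968% called), against 0.128% over all viewpoints. Of the 1033 windows, 35 had an unadjusted p under 0.05, 22 of them higher, and DESeq2 called 48, of which 44 were higher. The call did not pass with the 4 samples as labelled (adjusted p = 0.116), with reads capped at the 99th percentile (0.837), with a minimum of 100 reads (0.633), in 160 kb windows (0.159) or by captured fragments (1.00), and over 18 settings with a test the adjusted p ran from 2.79e-34 to 1.00. Scaled to the reads within 2 Mb, the window held 19.4% and 19.0% in +DBl6 against 15.0% in summed +Bl6, a 1.28-fold ratio.

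**Figure D1:**
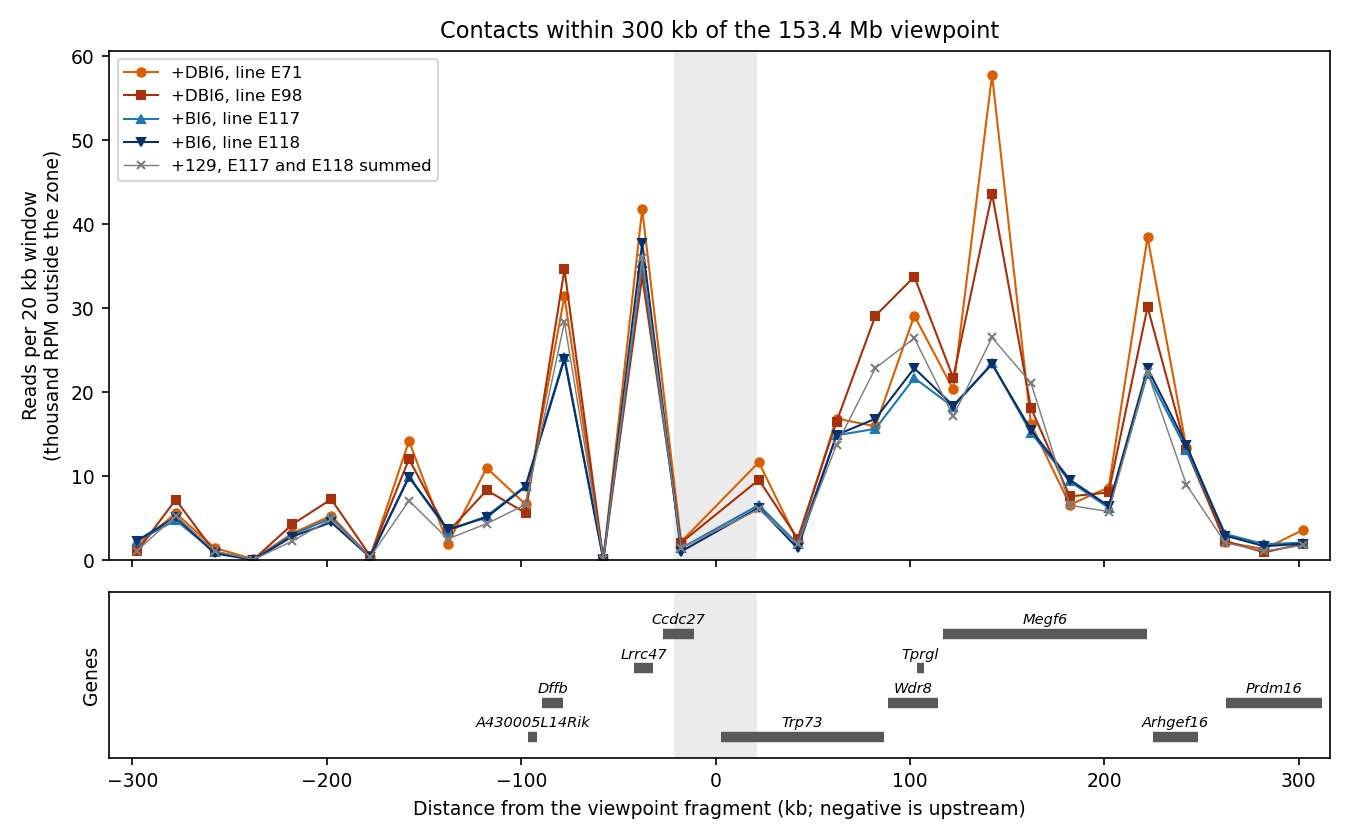
Reads per 20 kb window (in 1000 RPM, vertical axis) against distance from the viewpoint fragment (kb, horizontal axis) for the +DBl6 and +Bl6 samples and the summed +129 library, with most of the protein-coding genes as bars below and the omitted zone in grey. The +DBl6 lines reach 57745 and 43582 RPM in the Megf6 window 142 kb downstream, where the +Bl6 samples have 23419 and 23323.

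Most of the excess fell inside Megf6. In 20 kb windows, chr4:153560001-153580000, which lies within Megf6, had 57745 RPM in E71 and 43582 in E98. It had 23419 and 23323 RPM in +Bl6 of E117 and E118, and 26495 in +129. The log2 difference was 1.05, with an SE of 0.12 and an edgeR adjusted p of 5.75e-13, and it was the only call among 1687 windows of this size at the viewpoint (0.0593%), against 0.044% over all viewpoints. The other windows of the same 80 kb showed smaller differences that did not pass: 0.47 (SE 0.15) over Wdr8 and Tprgl, 0.17 (SE 0.19) over the start of Megf6, and 0.13 (SE 0.22) further into it. In 40 kb windows the call likewise moved to the Megf6 side, with 0.72 (SE 0.09, edgeR adjusted p = 7.90e-11), while the Wdr8 and Tprgl side gave 0.29 (SE 0.10, adjusted p = 0.807).

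All 18 HindIII fragments of the 80 kb window were captured in each library, so the difference is one of reads per fragment. Both +DBl6 lines lay above both +Bl6 samples on 10 of the 18, and below them on 2. Of 1402 fragments with reads in all 3 libraries, 34.7% had both lines above, and within 300 kb of the viewpoint 40.8% did. The 3 fragments with most reads in the window, summed over the +DBl6 and +Bl6 libraries, are given with both ends, each read from the HindIII site (capitals) into the fragment over 30 bases, the length at which the authors aligned the interacting read. The counts do not say which end was read.
Wdr8 fragment, left end, chr4:153515510-153515539, plus strand: AAGCTTtgggtgcagacaggaacatccaac
Wdr8 fragment, right end, chr4:153525196-153525225, minus strand: AAGCTTctggaattcttagtttccacctcc
Megf6 fragment at 144 kb, left end, chr4:153569624-153569653, plus strand: AAGCTTcatcctgggatgaggtctctgagg
Megf6 fragment at 144 kb, right end, chr4:153574289-153574318, minus strand: AAGCTTggctaagcccagagacaactgtga
Megf6 fragment at 151 kb, left end, chr4:153578161-153578190, plus strand: AAGCTTcgtgtttgacctcagagtgacggt
Megf6 fragment at 151 kb, right end, chr4:153579163-153579192, minus strand: AAGCTTatcaaaggacacagcctccctcct
Each of these ends has 1 match on chromosome 4.

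The Wdr8 fragment (chr4:153515516-153525225), which holds an exon, had 20546 RPM in E71 and 23604 in E98, against 14170 and 15628 in +Bl6 of E117 and E118 and 18261 in +129. Its +DBl6 mean was 1.48 times the summed +Bl6 level. The intronic Megf6 fragment at 144 kb (chr4:153569630-153574318) had 19696 and 16249 RPM against 7948 and 8672, and 11915 in +129, a ratio of 2.16. The intronic Megf6 fragment at 151 kb (chr4:153578167-153579192), 1026 bases long, had 20164 and 15207 RPM against 4860 and 5238, and 6542 in +129, a ratio of 3.50. It ranks among the 3 through its +DBl6 reads, since its 5046 RPM in summed +Bl6 were under those of 4 other fragments of the window that are not shown (5804 to 7141 RPM). On all 3 the +DBl6 lines lay above every control level, with E71 higher than E98 on the Megf6 fragments and lower on the Wdr8 fragment. The fragment with the highest ratio of the window, chosen for its ratio after the values were seen, lies next to the one at 144 kb, at 141 kb (chr4:153568685-153569629) and had 10252 and 6058 RPM against 2281 and 2172. The 6 fragments of the called 20 kb window together had a +DBl6 mean 27291 RPM above summed +Bl6, a ratio of 2.17, and the other 12 had one 13711 RPM above it, a ratio of 1.25. These ratios are a description of fragments picked by their reads, and no test was made on single fragments.

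**Figure D2:**
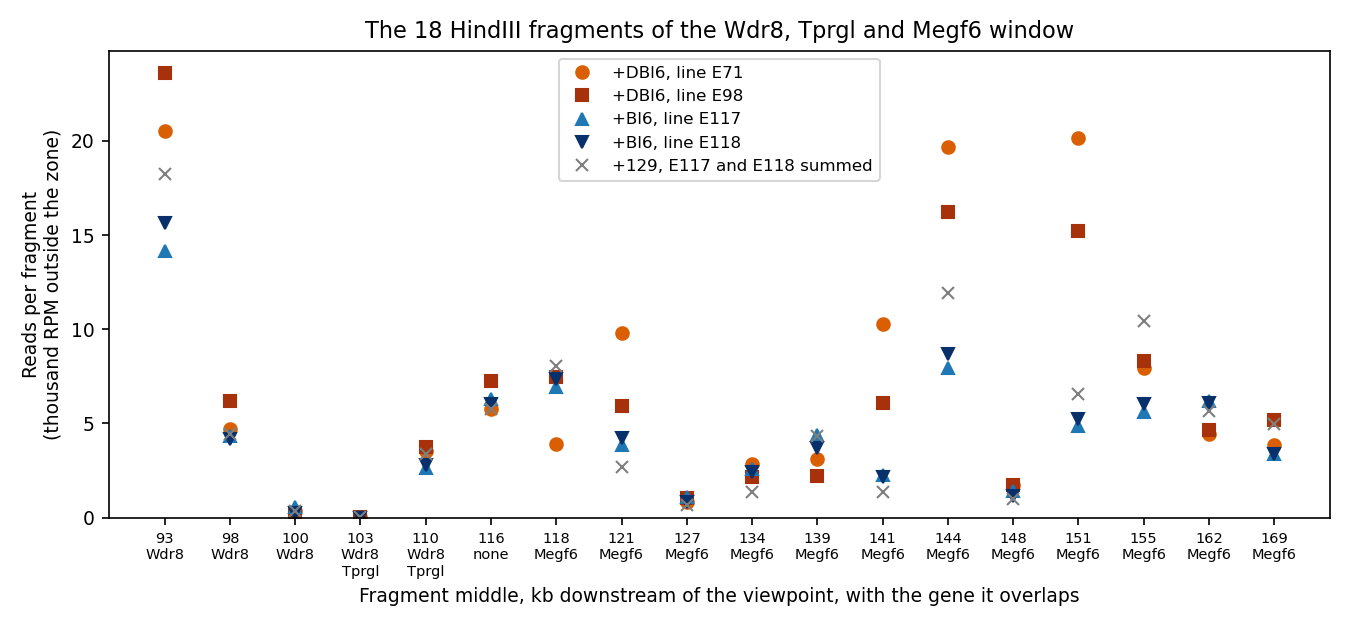
Reads per HindIII fragment (in 1000 RPM, vertical axis) for the 18 fragments of the Wdr8, Tprgl and Megf6 window in order of position, labelled with their distance from the viewpoint and gene; each symbol is a sample or the summed +129 library. The +DBl6 symbols separate from the controls on the Megf6 fragments at 141, 144 and 151 kb.

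Over whole genes, Megf6 had 110449 and 101545 RPM in E71 and E98 against 68885 and 69775 in E117 and E118 and 76642 in +129. Wdr8 had 29098 and 33743 RPM against 21681 and 22841, and 26417 in +129. Tprgl, inside Wdr8 on the opposite strand and sharing its fragments, had 3528 and 3727 against 2617 and 2791, and 3391 in +129. Over all 3 genes the +DBl6 lines lay above every control level.

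Around this window the other contacts of the near domain differed less, and edgeR called none of the other 80 kb windows within 500 kb. DESeq2 called 4 of the 12 windows there, all higher: the block, those with Trp73 and with Dffb, and the next one upstream of Dffb. With windows shifted by 40 kb, edgeR also called the one that starts at 153480001 and runs from Trp73 to the start of Megf6 (0.45, SE 0.10, adjusted p = 0.00661). Of the 12 windows of 80 kb centred within 500 kb, 11 had log2 differences above 0, and their median was 0.34, against a median of -0.07 over all 1033 windows. The window over most of Trp73 (chr4:153440001-153520000) held 46609 and 57677 RPM in E71 and E98, against 38932 and 39355 in E117 and E118 (0.49, SE 0.17, edgeR adjusted p = 0.718). The 3′ part of Megf6 with Arhgef16, a guanine nucleotide exchange factor for small GTPases, held 66994 and 58818 RPM against 50884 and 52513 (0.35, SE 0.15, adjusted p = 0.844 by edgeR). Downstream of Arhgef16 the contacts dropped to between 6928 and 18378 RPM in the Prdm16 windows of the 2 +DBl6 lines, where the log2 differences ran from -0.11 to 0.38 and both genotypes overlapped in the gene as a whole (51055 and 47783 RPM against 48344 and 47998).

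Upstream, the contacts were carried by the gene group next to the viewpoint and faded in the stretch without protein-coding genes beyond it. The window with A430005L14Rik and Dffb, the nuclease that cuts DNA in apoptosis, held 50919 and 51847 RPM in E71 and E98 against 41708 and 41384 in E117 and E118 (0.38, SE 0.16, edgeR adjusted p = 0.844). The fragments over Dffb had 22960 and 25865 RPM against 16848 and 17587, while those over its neighbour A430005L14Rik had 5712 and 5057 against 8145 and 8199. Over the whole gene, these neighbours lay on opposite sides of the control levels. Within Dffb the fragments were uneven. The one at chr4:153344512-153348571 had 7073 and 7485 RPM against 544 and 476. The Dffb fragment with most reads, chr4:153343377-153344511, went the other way, with 8892 and 10350 against 11805 and 12646. The window that holds Lrrc47 and Ccdc27, partly within the omitted zone, had 44016 and 35966 RPM against 36952 and 38807, with both genotypes overlapping. Of the 11 protein-coding genes that overlap the 500 kb on each side, both +DBl6 lines were above both +Bl6 samples over 6 and below them over 1. Over 613 protein-coding genes of chromosome 4 with enough reads, those shares were 19.6% above and 41.1% below. Over the 50 windows of 80 kb tested within 2 Mb they were 42% and 30%.

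The sides of the viewpoint differ in sequence and genes as well as in contacts. From 20 to 500 kb, the upstream side has 49.8% GC and 5 protein-coding genes, and the downstream side 52.0% GC and 6. Per kb, the downstream side held 564 and 562 RPM in E71 and E98 and 429 in summed +Bl6, and the upstream side 323, 314 and 261. From 1 to 2 Mb the order turned, with 69.8, 67.6 and 62.3 RPM per kb upstream, over the part with Chd5 and Nphp4, and 22.7, 22.6 and 27.8 downstream, although the downstream stretch holds 43 protein-coding genes and the upstream one 14. These per kb levels keep the same order of sides in the summed +129 library, with 444 against 271 RPM per kb near the viewpoint and 29.7 against 75.1 from 1 to 2 Mb.

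The +DBl6 samples had more of their reads near the viewpoint and fewer far from it. Between 100 and 200 kb downstream they held 10.4% and 9.47% in E71 and E98, against 6.88% and 6.96% in E117 and E118 and 7.46% in +129. Between 200 and 500 kb upstream they held 4.14% and 4.55% against 3.13% and 3.13%, but 4.09% in +129. Between 10 and 50 Mb upstream they held 20.2% and 20.5%, against 25.9% and 25.8% in +Bl6 and 23.1% and 23% in +129 of the same lines. In these bins the +DBl6 lines did not overlap with +Bl6, and +129 lay between the groups in each. In other bins without overlap it did not: it had 1.75% from 100 to 200 kb upstream, under +Bl6 at 2.38%, and 7.51% from 1 to 2 Mb upstream, above the +DBl6 lines at 6.98% and 6.76%. From 200 to 500 kb downstream it had 7.11%, under +Bl6 at 7.82%.

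**Figure D3:**
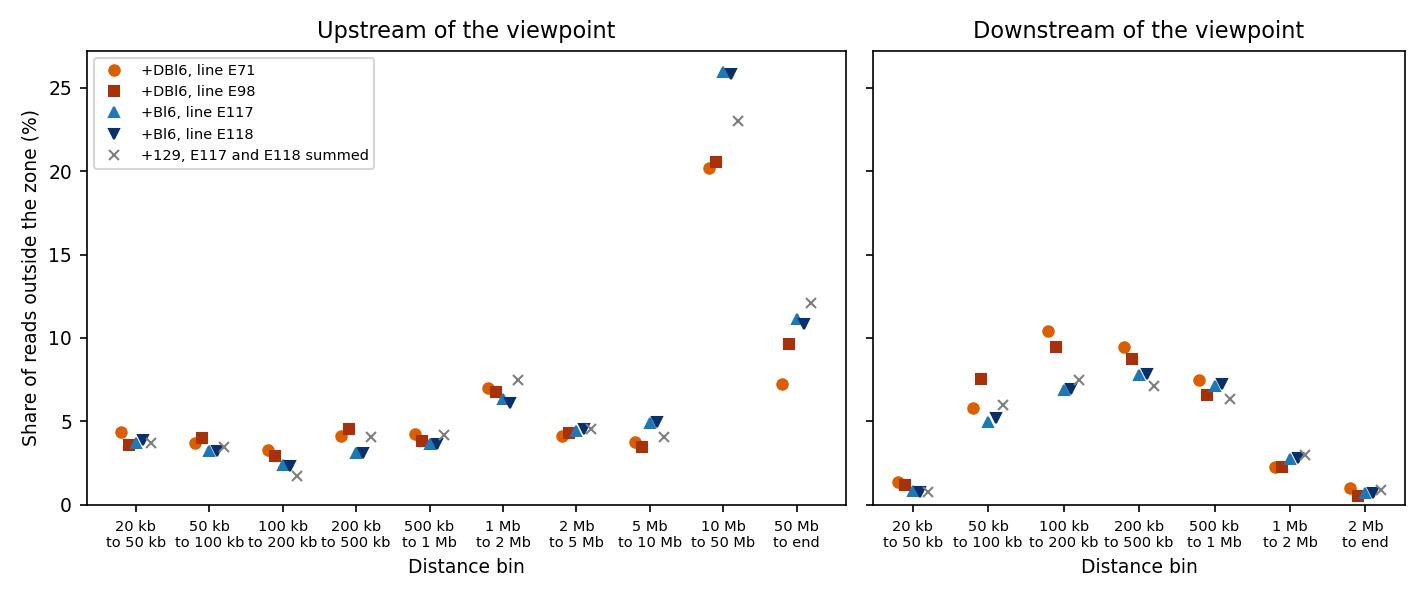
Share of reads outside the viewpoint zone (%, vertical axis) by distance bin (horizontal axis), upstream in the left panel and downstream in the right; each symbol is a sample or the summed +129 library. The +DBl6 symbols lie above +Bl6 in the downstream bins from 20 to 500 kb and below it upstream from 2 Mb on.

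Beyond 2 Mb on either side lay 36.4% and 38.5% of the reads in E71 and E98, and 47.1% and 46.9% in E117 and E118, with 44.6% in summed +129. The +DBl6 mean (37.4% ± 1.48, SD, n = 2) differed from summed +Bl6 (47.0%) by -9.58 percentage points, with a two-sided exact permutation p of 0.333, the smallest that 2 libraries against 1 allow. Upstream of the viewpoint lay 62.1% and 63.6% of the reads in E71 and E98 and 68.9% and 68.5% in E117 and E118. In summed +129 that share was 68.5%, nearer to +Bl6 than to +DBl6. The control homologues were amplified together and split afterwards by the allele site, so they share library properties and their closeness is not an independent comparison. The part of genotype in it was not tested. The +DBl6 mean minus summed +Bl6 was -5.82 percentage points (+DBl6 mean 62.9% ± 1.04, SD, n = 2, exact permutation p = 0.333).

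The fall-off with distance was steeper in both +DBl6 lines on the downstream side and differed little upstream. The slope of log10 reads per kb on log10 distance, from 20 kb to 2 Mb downstream, was -0.71 and -0.73 in E71 and E98, -0.59 and -0.55 in E117 and E118, and -0.61 in summed +129. The +DBl6 mean minus summed +Bl6 was -0.15 (exact permutation p = 0.333, the smallest possible). Upstream the slopes were -0.74 and -0.76 in +DBl6 and -0.77 in both +Bl6 samples, and -0.72 in summed +129. The difference from +Bl6 was 0.02, which became 0.106 from 20 to 500 kb and turned negative from 50 kb to 2 Mb, by captured fragments and with capped reads (exact permutation p = 0.667).

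Across the deleted interval, which the intact homologue keeps, the levels over single genes went both ways. Of 21 genes listed for the interval, 20 were found by name in the annotation. Their middles lie in 15 tested windows, of which edgeR called 1 higher, the window described above, and 0 lower (DESeq2 called 3, all higher), with 4 at an unadjusted p under 0.05. The median log2 difference of the 15 windows was 0.25. Over the genes themselves, both +DBl6 lines were above both +Bl6 samples for 8 of 20 and below them for 8. Over the 613 genes of the chromosome the shares were 19.6% above and 41.1% below, so the number below is near that background. Nearer the viewpoint the background differed: of 50 windows within 2 Mb, 42% were above and 30% below. The number above is near that share, and it includes Wdr8, Tprgl and Megf6, of the window chosen beforehand.

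Camta1 encodes a calmodulin-binding transcription activator and had the most reads of the listed genes centred beyond 500 kb, being 802353 bases long. Per kb its 34.9 and 34.7 RPM in E71 and E98 were under those of Nphp4 (132 and 113) and Ajap1 (93.6 and 62.2). Its 225 fragments, centred 2.59 Mb upstream, held 28035 and 27853 RPM in E71 and E98, against 17288 and 17306 in E117 and E118 and 23758 in +129. The +DBl6 lines lay above all controls, and no fragment gave more than 8.17% of the gene's reads in any of the 3 libraries. The 80 kb window at the middle of the gene differed by 0.83 (SE 0.77), which edgeR did not call (adjusted p = 0.999). The gene as a whole was not tested, and it was singled out after its values were seen.

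Ajap1, which encodes a protein of adherens junctions, lies alone in the gene-poor upstream stretch, 0.626 Mb from the viewpoint. It held 11093 and 7377 RPM in E71 and E98 against 4917 and 4706 in E117 and E118 and 7478 in +129, so E98 fell below the +129 level. Between 1.69 and 1.96 Mb upstream, 4 listed genes lay below +Bl6 in both +DBl6 lines. Plekhg5, another exchange factor, had 1615 and 1438 RPM against 3994 and 3976, and Espn, an actin-bundling protein of hair cells, had 1624 and 1251 against 2375 and 2240. Their shared window differed by -1.12 (SE 0.56, edgeR adjusted p = 0.845). Rpl22, a ribosomal protein gene, had 621 and 2144 RPM against 3728 and 3792, and Chd5, a chromatin remodeller, 3358 and 5251 against 5458 and 5592, with 3259 in +129. These 4 genes were not tested singly. Nphp4, a ciliary gene, had 11918 and 10241 RPM against 10289 and 10149, and there the genotypes overlapped. Near the far end, the circadian gene Per3 held 128 and 958 RPM against 1320 and 1292, and Errfi1, an inhibitor of EGF receptor signalling, was at 0 reads in E71 but at 625 RPM in E98, against 333 and 300.

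**Figure D4:**
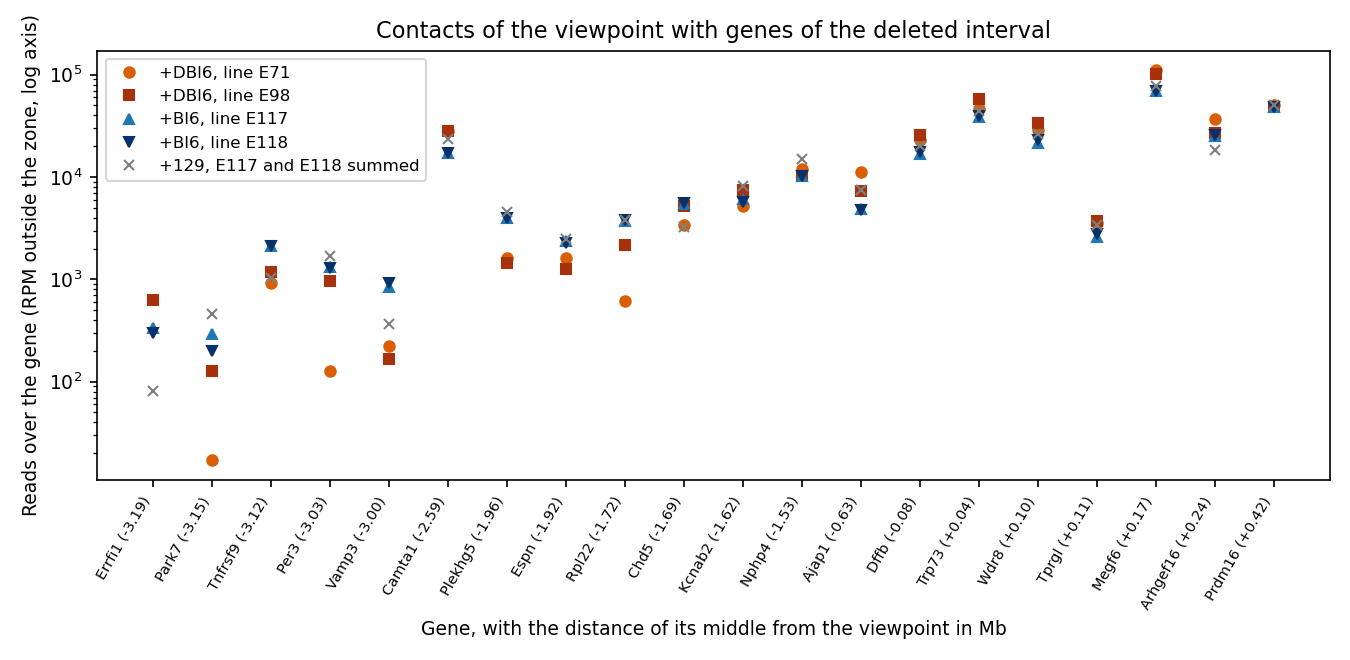
Reads over each gene of the deleted interval (RPM, log vertical axis), ordered by distance from the viewpoint (Mb, in the labels); each symbol is a sample or the summed +129 library, and Errfi1 in E71, at 0, has no symbol. The +DBl6 symbols lie above +Bl6 for Camta1, Ajap1 and the genes from Dffb to Arhgef16. They lie below it for Plekhg5, Espn, Rpl22, Chd5, Vamp3, Per3, Tnfrsf9 and Park7.

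Of 14 candidate genes for features of monosomy 1p36 elsewhere on chromosome 4, edgeR called 0 of the 10 windows tested (1 at an unadjusted p under 0.05, 0 by DESeq2), and their median log2 difference was -0.44. Both +DBl6 lines lay below both +Bl6 samples over 9 of the 14 genes and above them over 3, where the shares over 613 genes were 41.1% below and 19.6% above. Prkcz, an atypical protein kinase C gene 1.26 Mb downstream, had 7608 and 5069 RPM against 4432 and 4506. Rere, a transcriptional corepressor gene 3.60 Mb upstream, had 2057 and 2721 RPM against 2935 and 2985. Among them Wasf2, Luzp1, Hspg2 and Dvl1 had 0 reads in E71, which allows up to 25.5 RPM at its 117638 reads outside the zone. Luzp1, a leucine zipper gene 17.4 Mb upstream, had 12.4 RPM in E98 and 565 and 663 in E117 and E118, where 90.3% of its summed reads lay on 1 fragment.

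Distal contacts were sparse, and no window beyond 2 Mb passed edgeR's test in the 80 kb grid used here. With the grid shifted by 40 kb it called 1, which starts at 121800001 (log2 8.46, SE 2.18, adjusted p = 0.0340). Of 983 such windows edgeR called 0, with 27 at an unadjusted p under 0.05, of which 14 were higher, and DESeq2 called 40, of which 36 were higher. The SE of a window at this viewpoint had a median of 3.26 on the log2 scale, so most changes were not detectable with these libraries. The parts of depth and of the number of libraries in that SE were not tested. Both +DBl6 lines lay above both +Bl6 samples in 207 of the 983 windows (21.1%) and below them in 382 (38.9%). Over all 1033 windows, most of which are these, the shares were 22.1% above and 38.4% below. The 2497 distal fragments captured in E71 and the 6341 in E98 had 1100 in common, which is 44.1% of the E71 list and 17.3% of the E98 list. The E71 list shared 1190 fragments with summed +Bl6, or 47.7% of it, and 16.8% of the +Bl6 list. These lists differ in length, and no order is read from the shares.

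At a coarser scale the levels of the libraries correlated along the chromosome. In bins of 1 Mb beyond 2 Mb, the correlation of log2 levels was 0.74 between E71 and E98 over 146 bins, 0.73 between E71 and summed +Bl6, and 0.83 between E98 and summed +Bl6 over 149 bins. Bins share fragment density, mappability and the fall-off with distance, and are not independent. Whether the libraries share more than that fall-off was not tested. The 74 bins with more than 6 protein-coding genes took 80.3% and 77.7% of the distal reads in E71 and E98, and 79.4% in summed +Bl6. The other 75 bins took the rest. These sets of bins were not matched for distance from the viewpoint, and a preference for gene-rich bins was not tested. The bin 5.93 Mb upstream, with 27 protein-coding genes, held 18548 and 14809 RPM in E71 and E98 against 23291 and 23588 in E117 and E118. The bin 2.93 Mb upstream, where Camta1 lies, held 26344 and 23071 against 23627 and 24231.

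**Figure D5:**
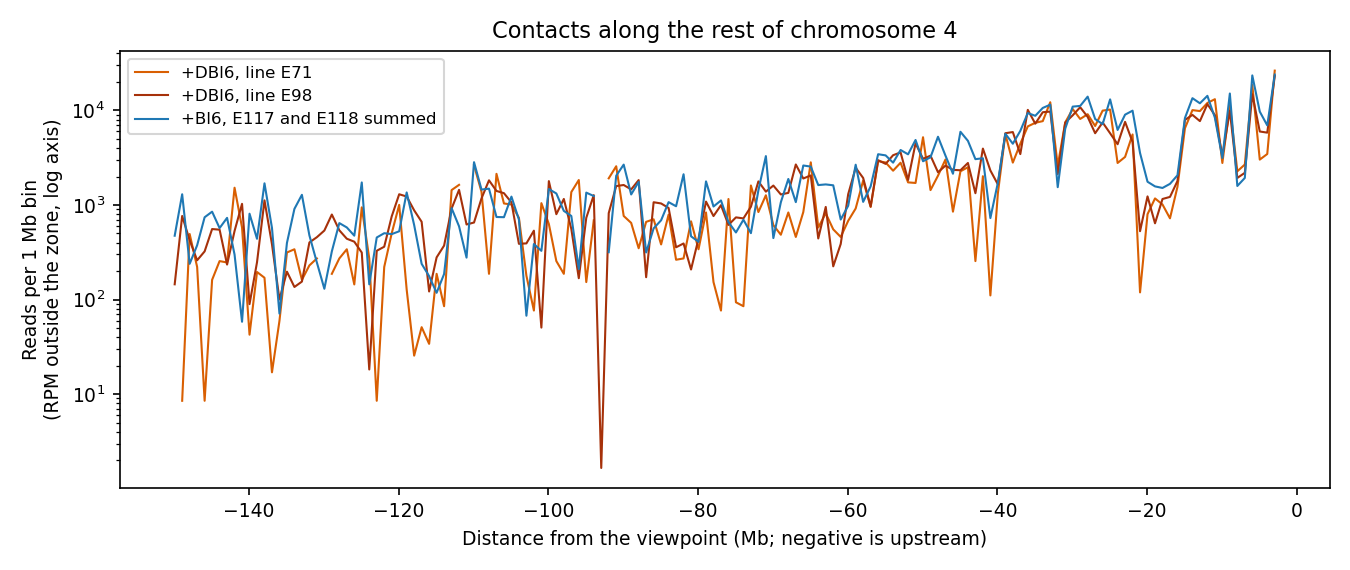
Reads per 1 Mb bin (RPM, log vertical axis) against distance from the viewpoint (Mb, horizontal axis) beyond 2.5 Mb, for both +DBl6 lines and the summed +Bl6 library; gaps are bins with 0 reads. The lines rise and fall together toward the viewpoint, and +Bl6 lies above +DBl6 over much of the last 40 Mb.

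The 5 distal windows with the highest level in their lowest library are described next. The window with Per3, Vamp3 and the end of Camta1 (chr4:150400001-150480000) had 3995 and 4283 RPM in E71 and E98 against 5105 and 5325. The one with Agtrap, 2610109H07Rik, Mad2l2 and Fbxo6, 5.95 Mb upstream, had 3205 and 3164 against 5056 and 5328. In both the +DBl6 lines lay below +Bl6, with log2 differences of -0.26 (SE 0.51) and -0.64 (SE 0.54) that edgeR did not call. The next Camta1 window had 5874 and 2854 against 3078 and 3297, and the windows with 9430015G10Rik and with Agrn and Isg15, just over 2 Mb downstream, had 5899 and 3341 against 4176 and 4211, and 3154 and 2030 against 2947 and 2955, all 3 with overlapping genotypes.

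The largest differences among distal windows with reads on at least 3 fragments in each library were all higher in +DBl6 than in +Bl6. That filter kept 286 of the 983 windows. It also applies to E71, which captured 2497 distal fragments against 7076 in summed +Bl6, so windows low in E71 can drop out. No direction is therefore read from the windows named here. Over all 983 windows, both +DBl6 lines were below both +Bl6 samples in 382 (38.9%) and above them in 207 (21.1%). These are near the shares over all 1033 windows of the viewpoint, 38.4% below and 22.1% above. The windows with the largest differences lay over E130114P18Rik and Nfia, Agbl4 and Bend5, Dab1 (2 windows), and Gm1661, Tmem53 and Rnf220, between 36.5 and 56.0 Mb upstream. Their log2 differences ran from 4.28 to 5.14 with SE from 1.61 to 3.67, and none passed edgeR's test (adjusted p from 0.844 to 0.999). The window over part of Nfia, which encodes a nuclear factor I transcription factor, had 1003 and 919 RPM in E71 and E98 against 30.8 and 26, and 95% of its summed +Bl6 reads lay on 1 fragment. The +129 library, however, held 853 RPM in the Agbl4 and Bend5 window, above +DBl6 (42.5 and 734), and 516 in the second Dab1 window, between the +DBl6 lines (910 and 289). The +DBl6 reads of these windows were also uneven, with 29.9% to 91.3% on 1 fragment.

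The 3 distal fragments with the highest lowest level over the libraries are shown by some of their ends, with the HindIII site in capitals. One lies 6.78 Mb upstream and the other two are neighbours about 2.04 Mb downstream, and none overlaps a protein-coding gene.
Fragment 6.78 Mb upstream, left end, chr4:146646335-146646364, plus strand: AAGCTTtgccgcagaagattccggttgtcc
Fragment 6.78 Mb upstream, right end, chr4:146648878-146648907, minus strand: AAGCTTtataattaagaattgctgtcatag
Fragment 2.04 Mb downstream, left end, chr4:155457939-155457968, plus strand: AAGCTTaagacatctataaaacatcactgt
Fragment 2.05 Mb downstream, right end, chr4:155477535-155477564, minus strand: AAGCTTtgcgagtgcagcttcctcctcagg
The left end of the upstream fragment has 7 exact matches on chromosome 4, and the other ends shown have 1. That fragment had 434 and 1141 RPM in E71 and E98 against 543 and 577 in E117 and E118. The downstream neighbours had 1709 and 682 RPM against 565 and 650, and 825 and 994 against 586 and 650. The +DBl6 lines lay above +Bl6 on the neighbours and on both sides of it on the upstream fragment.

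The 80 kb window over Wdr8, Tprgl and Megf6 was then read from the viewpoints on either side of it. From viewpoint 8, at 152.9 Mb and 0.638 Mb away, it took 1.10% of the reads in the summed +DBl6 library, against 0.958% and 0.949% in +Bl6 of E117 and E118. Here the +DBl6 samples share molecules (correlation of log reads 0.96) and count once. The difference of 0.146 percentage points had an exact permutation p of 0.333, the smallest possible, and edgeR gave 0.64 (SE 0.67, adjusted p = 0.999). By captured fragments the sign turned.

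From viewpoint 10, at 153.9 Mb and 0.377 Mb on the other side, the window took 2.79% and 2.35% of the reads in +DBl6 of E71 and E98, and 3.84% and 1.93% in +Bl6 of E117 and E118. The E117 sample there had 15 reads in the window of 391 outside the zone (95% Wilson interval 2.34% to 6.23%), and without it the difference of -0.317 percentage points became 0.635. From viewpoint 10 edgeR gave a log2 difference of 0.55 (SE 0.54, adjusted p = 0.999), opposite in sign to that of the shares. Moreover +DBl6 of E98 and +Bl6 of E118 shared 1428 distant fragments with a correlation of 0.58 at this viewpoint. Over all 11 other viewpoints edgeR's log2 differences for the window ran from -0.94 to 1.56, and none passed (adjusted p from 0.844 to 0.999). The higher level of this window was thus called from the viewpoint at 153.4 Mb alone, and the difference between viewpoints was not tested.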

How the data were processed

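The authors assigned each read pair to a homologue by a polymorphism in the viewpoint read, trimmed the interacting read and aligned it with bowtie (version not given in the sources used here) to sequences bordering HindIII sites of mm9, keeping unique matches. The deposited values used are counts of reads for each chromosome 4 fragment between HindIII sites, neither normalized nor collapsed by molecular identifiers, so reads are not independent molecules. All 48319 inner fragment ends fell on HindIII sites of NCBIM37. The deposited tables of regions hold the authors' own comparisons and were not used.

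Samples of a group whose log reads correlated above 0.9 at shared fragments beyond 1 Mb were summed. Fragments were placed by their middle in windows of 80 kb and 20 kb. Windows with at least 10 reads in 50% of libraries were fitted per viewpoint with edgeR 4.0.16 (R 4.3.3; TMM, quasi-likelihood F test), adjusted by Benjamini-Hochberg over all 12 viewpoints. SE is the log2 difference over the square root of F. DESeq2 1.42.0 was an alternative. Shares and slopes (10 bins from 20 kb to 2 Mb) were compared by exact permutation. The window script was tested on simulated counts. Windows named were the block, its neighbours within 500 kb, calls, and beyond 2 Mb the 5 with the highest lowest level and the 5 with the largest difference. Viewpoint, gene lists and window were chosen with earlier results of these data known. Lines come from separate embryos, while shared molecules leave +Bl6 as 1 library, so only the +DBl6 arm holds a spread between lines. With 2 libraries against 1, edgeR pools its estimate of spread over the windows of the viewpoint. The SE and p-value of a window therefore do not measure the spread between the +DBl6 lines in that window. Some genes of the lists are not reported here by name.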

Additional observations from a re-analysis of the deposited data

Results flagged for a closer look

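Reads assigned to the 129S5 homologue were present at this viewpoint in lines that lack it there, which is a signal in samples the comparisons above did not use. They made up 0.632% of the assigned reads in E71 (1173 reads) and 0.492% in E98 (10443 reads), against 49.3% in each control line. Of the fragments they hit, 78.7% in E71 and 94.2% in E98 were also captured in +DBl6 of the same line, and 82.7% and 62.8% in +129 of the control line purified with the same kit. The source of these reads was not tested.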

How the results depend on the processing

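The number of 80 kb windows called at this viewpoint was 1 in the main setting and stayed at 1 under 7 of 15 other alternatives, and when either +Bl6 sample was left out (1 to 1). With edgeR it was 0 with a minimum of 100 reads (17 at an unadjusted p under 0.05), in 160 kb windows (22), by captured fragments (0), with capped reads (25) and with the 4 samples as labelled (394), 3 with windows shifted by 40 kb (1 of them beyond 2 Mb), and 33 with the purification kit as a replicate block, pairing E71 with E117 and E98 with E118; DESeq2 gave 48. Leaving out a +DBl6 line leaves 1 library against 1, a value with no test. The log2 difference of the Wdr8, Tprgl and Megf6 window was positive throughout. It lost the call with a minimum of 100 reads (0.84), in 40 kb windows (0.29), in 160 kb windows (0.87), by captured fragments (0.45), with capped reads (0.88) and as labelled (0.95), and was 0.94 (adjusted p = 2.79e-34) with the replicate block. The replicate block enters the +Bl6 samples separately although they share captured molecules. Scaled to reads within 2 Mb, an alternative chosen after seeing the data, the log2 difference of the window was 0.36. Leaving out 1 sample gave 0.70 to 0.78. The cause of these changes was not tested. Both shares and the downstream slope kept their sign under all alternatives run. The upstream slope difference reversed from 50 kb to 2 Mb (-0.0310), by captured fragments (-0.0184) and with capped reads (-0.102), and ran from 0.00469 to 0.0323 with 1 sample left out. From viewpoint 8 the window difference reversed by captured fragments (-0.0418) and ran from 0.112 to 0.182 with 1 sample left out; from viewpoint 10 it ran from -1.27 to 0.635. Placing fragments by their start or end, also added after seeing the data, kept the call. Line E71, with 117638 reads outside the zone, limits what distal windows can show.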
